A study of Mus musculus with 8 samples.

Results

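The cytosolic ribosomal protein genes were followed across 8 RNA sequencing libraries of mouse natural killer (NK) cells. Genes were chosen by symbol: every Rpl or Rps symbol with a number and the usual suffixes, plus Rplp0, Rplp1, Rplp2 and Rpsa. Rpl29, the Rps6k kinases and rows with a -ps symbol, which marks a pseudogene, stayed out. The rule found 84 of the 27179 genes in the count table, of which 31 encode proteins of the small ribosomal subunit, 45 encode proteins of the large subunit, and 8 are paralogs, second copies related to one of those genes. Among the 8, Rps12l2 is annotated in RefSeq as a pseudogene and Rps4l as a transcribed pseudogene; the rule keeps them because it reads symbols. Enough reads for testing were present for 82 of the 84, among 13184 genes tested. Rpl39, a protein of the exit tunnel with 1 to 10 counts per library, and Rpl3l, a paralog of Rpl3 with 0 or 1 count per library, were not tested.

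All cells came from C57BL/6 mice, from spleen, bone marrow and blood, and were purified with magnetic beads against CD49b (DX5), a surface integrin of NK cells. The 4 groups of 2 libraries each were wild-type cells ex vivo, CIS-/- cells ex vivo, wild-type cells in vitro and CIS-/- cells in vitro. CIS, encoded by Cish, is a suppressor of cytokine signalling that is induced by cytokines and dampens the receptors that induced it. CIS-/- cells are called CIS-null here. The medium, the cytokines, the length of culture, the sex and age of the mice and the number of animals per library are not given in the sources used here, and the p-values therefore describe only the spread between libraries, part of which may be technical.

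Ribosomal proteins assemble with ribosomal RNA in the nucleolus into a small subunit, which reads the messenger RNA, and a large subunit, which joins amino acids. Most of them are needed in equal numbers, and their genes are known to be expressed together in growing cells. Their messages are known for a start that reads C followed by a run of pyrimidines, the 5′ terminal oligopyrimidine (TOP) motif, through which mTOR signalling and LARP1 control their translation. Lymphocytes leaving a resting state enlarge their ribosome pool before they divide.

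RefSeq start regions (build GRCm38.p6) were available for 63 of the 84 genes. A C followed by at least 4 pyrimidines (C or T) on the transcribed strand began within 20 bases of the annotated start in 81% of them, against 53.3% of 27025 genes in the same table. Within 5 bases the shares were 46% and 21.2%, and exactly at the annotated start 20.6% and 3.01%. The letters CTCTTTC stood between 20 bases before and 50 bases after the start in 19% of the 63 genes and in 1.11% of all genes. CCGGAAG on either strand, searched from 250 bases before to 50 after the start, was in 41.3% against 9.93%. AAGATGG, searched the same way, was in 15.9% against 7.28%, and TATAAA in the 50 bases before the start was in 1.59% against 3.15%. Annotated starts can lie several bases from the start a cell uses, and a match of letters is no evidence that a factor binds.

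Windows from 20 bases before to 30 bases after the start are shown for genes that the later results turn on, as examples of a shared feature. Capitals mark the longest run of this kind in each window, and shorter runs are left in lower case. In the small subunit they are Rps6 (chr4:86857338-86857387, minus strand), the substrate of the S6 kinases, Rps18 (chr17:33955636-33955685, minus strand) and Rps27 (chr3:90213619-90213668, minus strand). In the large subunit they are Rpl7a (chr2:26910787-26910836, plus strand), Rpl18 (chr7:45718051-45718100, plus strand), Rplp2 (chr7:141447631-141447680, plus strand) of the P stalk, and Rpl38 (chr11:114668560-114668609, plus strand), whose run begins at the annotated start. Rpl41 (chr10:128549139-128549188, minus strand) is shown as a gene without a run in this window. The paralogs Rps27l (chr9:66946066-66946115, plus strand) and Rpl22l1 (chr3:28805488-28805537, plus strand) complete the set.
Rps6: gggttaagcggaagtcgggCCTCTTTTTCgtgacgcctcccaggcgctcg
Rps18: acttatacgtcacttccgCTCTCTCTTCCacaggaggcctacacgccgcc
Rps27: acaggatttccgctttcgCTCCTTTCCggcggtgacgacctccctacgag
Rpl7a: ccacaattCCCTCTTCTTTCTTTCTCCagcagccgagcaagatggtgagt
Rpl18: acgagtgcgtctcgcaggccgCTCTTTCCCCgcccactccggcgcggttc
Rplp2: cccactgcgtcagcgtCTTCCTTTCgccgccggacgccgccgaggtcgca
Rpl38: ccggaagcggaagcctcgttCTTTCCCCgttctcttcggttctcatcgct
Rpl41: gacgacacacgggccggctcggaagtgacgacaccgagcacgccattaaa
Rps27l: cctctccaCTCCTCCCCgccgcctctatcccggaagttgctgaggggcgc
Rpl22l1: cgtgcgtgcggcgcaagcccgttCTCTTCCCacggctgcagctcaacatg

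Libraries held 21485710 to 28065268 counts. Cish, the targeted gene, had lower values in CIS-null cells in both states: 9.26 and 9.12 CPM (counts scaled to a common library size) in the wild-type libraries ex vivo against 1.29 and 2.64, and 219.8 and 201.9 in vitro against 21.2 and 17.2. The NK receptor Ncr1 was present in all 8 libraries, from 476 to 1884 CPM, and was lower in vitro. Its log2 change on culture was -1.43 for the wild-type genotype and -1.85 for the CIS-null genotype. Of 11 NK markers, Ncr1 among them, 1 rose and 9 fell on culture for wild-type, with a median log2 change of -1.11. For CIS-null, 1 rose and 8 fell, with a median of -1.45. Over all tested genes 32.1% rose and 31.6% fell on culture for wild-type, and 34.8% and 37.5% for CIS-null. Summed markers of other cells differed between states and genotypes. The 10 B cell markers summed to between 226.8 and 584.9 CPM ex vivo and between 92.1 and 163.8 in vitro. The 10 monocyte and macrophage markers summed to between 113.5 and 213 ex vivo and between 18.3 and 29.2 in vitro, and the 9 basophil and mast cell markers to between 92.4 and 166.2 and between 437 and 992.5. Only 3 of those 9 rose on culture in each genotype, while 4 fell in wild-type cells and 6 in CIS-null cells. The median log2 changes of the 9 were -1.55 and -3.01, so their higher sum in vitro comes from a minority of them. The 10 T cell markers summed to between 43.7 and 73.5 CPM ex vivo. In vitro they summed to 201.7 and 184.3 in wild-type and to 879.7 and 833.9 in CIS-null cells. Most of the latter came from Cd3g (496.1 and 449.8) and Cd3d (241 and 271.9), while Cd4 was at 0 and 0.04. On culture 3 of the 10 rose and 4 fell in wild-type cells, and 5 rose and 2 fell in CIS-null cells. Between genotypes in vitro 6 were higher in CIS-null cells and 1 lower, against 11% and 14.6% of all tested genes. Xist, transcribed from the inactive X chromosome, was at 119.6 and 162.1 CPM in wild-type cells ex vivo and at 0.322 and 0.197 in CIS-null cells ex vivo, and in vitro at 0 and 0.0351 in wild-type and 130.7 and 89.7 in CIS-null cells. Genotype within a state, and culture within a genotype, therefore cannot be told apart from what sets Xist, such as sex. The part of these differences in the results below was not tested. In bulk libraries, fewer cells of a type and less RNA per cell cannot be told apart.

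Ribosomal protein genes took a larger part of the counted reads in cultured cells than in cells taken from the animal. The 84 genes summed to 17637.4 and 17240.4 CPM in wild-type libraries ex vivo, to 23018.4 and 15759.2 in CIS-null libraries ex vivo, to 35722.5 and 33893.3 in wild-type libraries in vitro, and to 40661.1 and 51134.2 in CIS-null libraries in vitro. All 4 cultured libraries lay above all 4 ex vivo libraries. As a share of counts, the lowest library was the second CIS-null ex vivo library, at 1.61% (95% Wilson interval 1.605 to 1.614, counting error only), and the highest the second CIS-null in vitro library, at 4.7% (4.692 to 4.708). The mean log2 difference between the states was 1.13, or 2.19-fold (exact permutation test over libraries, two-sided p = 0.0286, n = 4 against 4, the smallest p this design can give). It was 1.00 on the log2 scale in wild-type cells (2-fold) and 1.26 in CIS-null cells (2.39-fold).

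**Figure D1:**
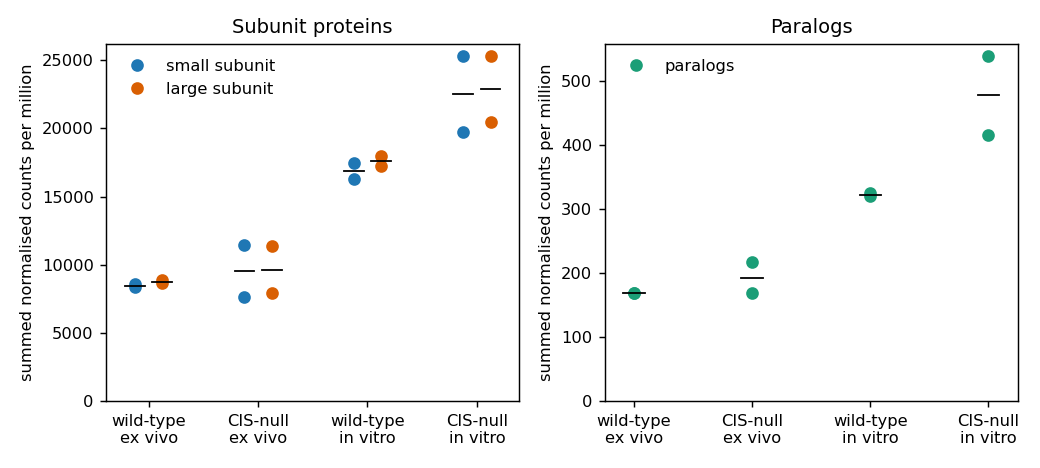
Summed CPM of the ribosomal protein genes in each library (points) and the mean of each group of 2 (black lines), for small and large subunit genes (left) and paralogs (right). Both subunits moved together, and the CIS-null libraries lay further apart than the wild-type libraries in both states.

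Both subunits contributed about equally. Small subunit genes summed to 8581.4 and 8398.8 CPM in wild-type cells ex vivo, and to 17439.8 and 16294.4 in wild-type cells in vitro. Large subunit genes summed to 8886.6 and 8671.7 ex vivo and to 17957.7 and 17278.7 in vitro. In CIS-null cells the small subunit went from 11447.9 and 7663.3 to 19750.2 and 25287.7, and the large subunit from 11353.1 and 7926.7 to 20494.5 and 25307. The 10 most abundant genes made up 56.2% of the members' CPM.

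In wild-type cells, 66 of the 82 genes tested rose in culture and 2 fell (edgeR quasi-likelihood test, Benjamini-Hochberg adjusted p under 0.05 over all tested genes). Among all 13184 tested genes 32.1% rose and 31.6% fell. The median log2 fold change of the 82 genes was 0.81 (1.76-fold) and that of all tested genes -0.00. By class, 25 of 31 small subunit genes rose with a median of 0.95, 38 of 44 large subunit genes rose with a median of 0.74, and 3 of 7 paralogs rose while 2 fell. In CIS-null cells 72 of the 82 genes rose and 2 fell, against 34.8% and 37.5% of all tested genes, with a median of 1.13 (2.19-fold) against -0.05. All 66 genes that rose in wild-type cells also rose in CIS-null cells, which is 91.7% of the 72 there. Neither culture comparison shares a library with the other.

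**Figure D2:**
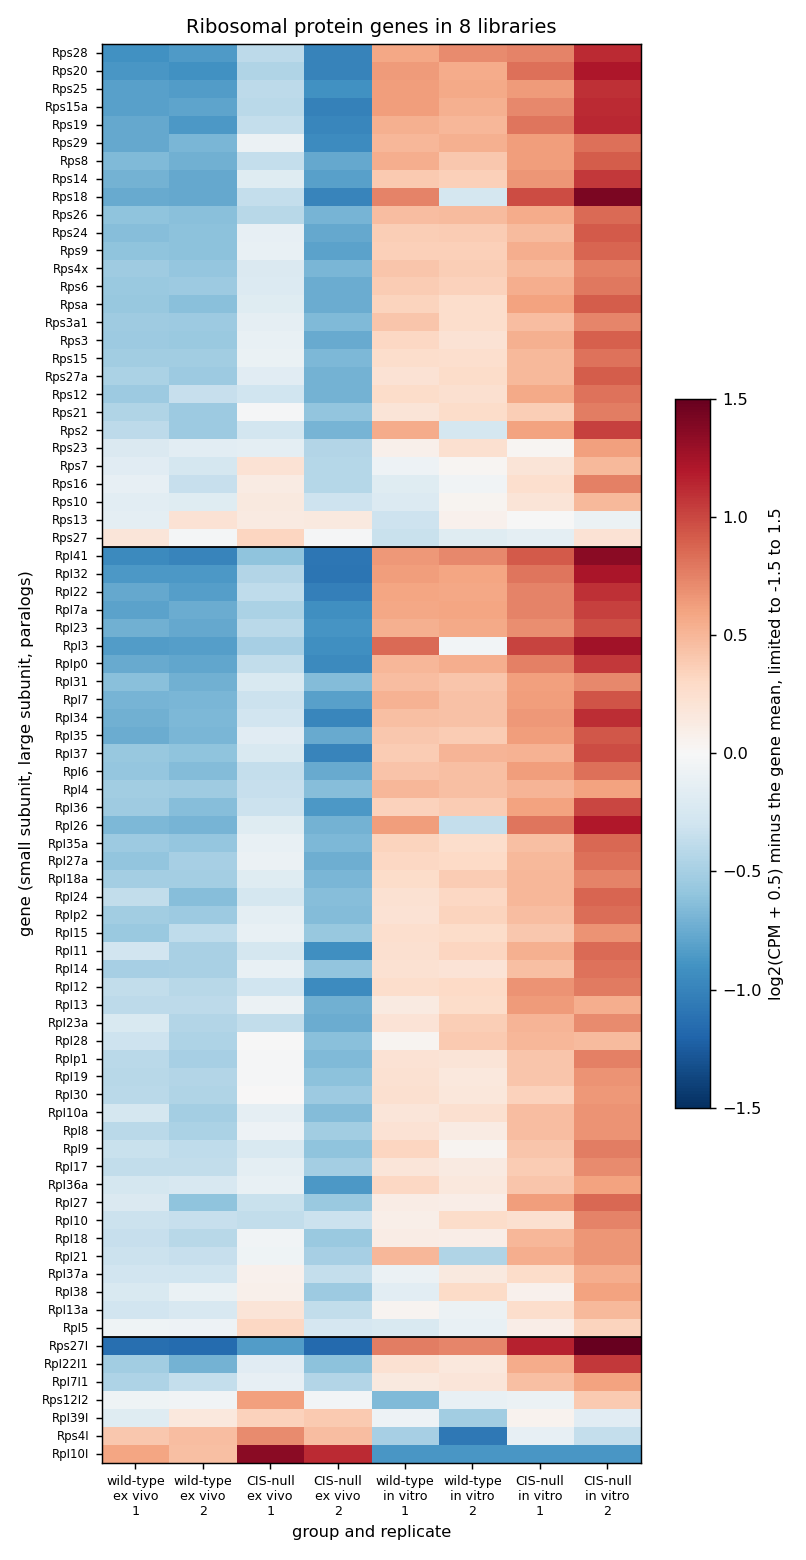
Tested ribosomal protein genes (79 of the 82, rows, by class and then by the change on culture in wild-type cells) in the 8 libraries (columns), as log2(CPM + 0.5) minus the gene's mean, with colour limited to -1.5 to 1.5. The ex vivo columns are low and the in vitro columns high for most rows, the second CIS-null ex vivo library is the lowest of its state for most genes, and 5 rows (Rps18, Rps2, Rpl3, Rpl26, Rpl21) drop in the second wild-type in vitro library.

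Among the core subunit genes, Rpl41, which encodes a very short basic peptide of the large subunit, changed most in both genotypes. It measured 455.7 and 446 CPM in wild-type cells ex vivo and 1390.3 and 1465.5 in vitro, a rise of 1.66 on the log2 scale (SE 0.184, edgeR adjusted p = 0.000101). In CIS-null cells it went from 582.3 and 417.2 to 1673.8 and 2257.8 (1.98, SE 0.186, edgeR adjusted p = 2.65e-05). The groups did not overlap in either genotype.

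Rps28, a short protein at the messenger RNA exit side of the small subunit, rose from 23.5 and 24.6 CPM to 67.1 and 73.4 in wild-type cells (2.92-fold) and from 33.9 and 22 to 75.2 and 97.5 in CIS-null cells. Its groups did not overlap in either genotype, as for most members. Of 19 members whose human counterparts are mutated in Diamond-Blackfan anaemia, an inherited failure of red cell production, 15 rose in each genotype, with medians of 0.90 and 1.25. These counts are near those of the whole set, where 66 and 72 of 82 rose, with medians of 0.81 and 1.13. Over all tested genes 32.1% and 34.8% rose.

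The P stalk, which recruits elongation factors to the large subunit, is built on Rplp0 with copies of Rplp1 and Rplp2, beside its base protein Rpl12. All 4 rose in both genotypes. Rplp0 went from 1047.3 and 1027.3 CPM to 2501.2 and 2585.1 in wild-type cells (2.45-fold), whereas Rplp1 went from 1177.5 and 1095.3 to 1798.2 and 1779 (1.57-fold). The difference between the 2 genes was not tested. Of the 8 tested genes of the polypeptide exit tunnel and its rim, all rose in both genotypes, from 0.55 for Rpl17 to 1.39 for Rpl22 on the log2 scale in wild-type cells. Of 5 genes on the messenger RNA entry and decoding side of the small subunit, 4 rose in wild-type cells and 5 in CIS-null cells. The counts of these small groups stand beside 66 and 72 of all 82 members, and 32.1% and 34.8% of all tested genes. Among 3 tested X-linked genes, Rps4x and Rpl10 rose in both genotypes and Rpl36a in CIS-null cells (1.10, against 0.55 with an edgeR adjusted p of 0.113 in wild-type cells).

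The 5S ribonucleoprotein, which also restrains Mdm2 when ribosome assembly is disturbed, showed unlike changes in its 2 proteins. Rpl11 was at 4.67 and 3.99 CPM in wild-type cells ex vivo and 6.95 and 7.41 in vitro (0.73 on the log2 scale, edgeR adjusted p = 0.0287). Its partner Rpl5 measured 30.5 and 30.1 ex vivo and 27.2 and 29.4 in vitro (-0.10, edgeR adjusted p = 0.637). In CIS-null cells Rpl11 rose by 1.38, while Rpl5 was at 39.5 and 26.6 ex vivo and 34.2 and 40.3 in vitro (0.17, edgeR adjusted p = 0.385). The difference between these 2 genes was not tested, and 93.84% of the Rpl5 transcript's 50-base words also occur in other genes.

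Besides Rpl5, the core genes that passed the threshold in neither genotype were Rpl38, Rps7, Rps10, Rps13 and Rps27. Rps7 measured 118 and 110.5 CPM ex vivo and 125.6 and 135.6 in vitro in wild-type cells, and 153.8 and 98 ex vivo and 151.8 and 186.2 in vitro in CIS-null cells. Rps27 measured 10.8 and 9.31 against 7.44 and 8.33, and 12 and 9.36 against 8.52 and 11.1. Another 6 genes passed only in CIS-null cells: Rpl37a, Rps23, Rpl21, Rps16, Rpl13a and Rpl36a. No member passed the test of the difference between the genotypes' responses to culture (0 higher and 0 lower by edgeR, 2 at an unadjusted p under 0.05, 0 by DESeq2; 0.0531% and 0.0834% of all tested genes), so those 6 are not shown to differ between genotypes.

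**Figure D3:**
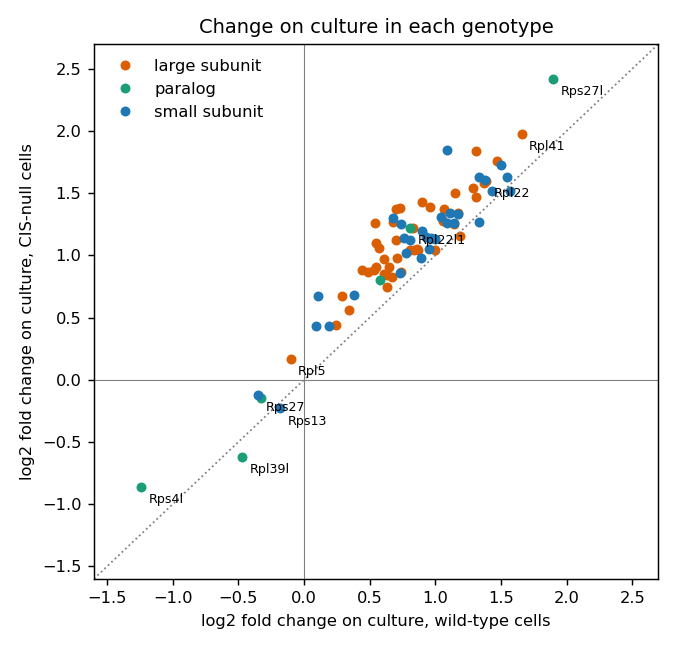
Log2 fold change on culture of each tested gene in wild-type cells (horizontal) and CIS-null cells (vertical), coloured by class, with the line of equal change dotted. Rpl10l, which had no counts in vitro, is left out. Most points lie above the line, Rps27l lies farthest out, and Rps4l lies lowest.

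Ribosomal protein genes are short. The median length of the 82 was 714 bases, against 2682.5 over all tested genes, and 63 of them were at most 1000 bases long. The 1454 other tested genes of at most 1000 bases had a median log2 change on culture of 0.44 in wild-type cells and 0.67 in CIS-null cells, between the medians of all tested genes and those of the ribosomal protein genes. With a smooth trend on length removed from the fit, 60 members rose and 3 fell in wild-type cells (34.9% and 29.3% of all genes) with a median of 0.63, and 67 rose and 6 fell in CIS-null cells (37.4% and 33.8%) with a median of 0.71. With base composition removed as well, 46 rose and 4 fell in wild-type cells (34.6% and 31% of the 11976 genes with a value), and 58 rose and 5 fell in CIS-null cells (37.1% and 35.4%), with medians of 0.48 and 0.53. The 3 that fell with the length trend removed in wild-type cells were Rpl10l, Rps27 and Rps4l.

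The paralogs did not move as a block. Rps27l, which differs from Rps27 in a few amino acids and is a known target of p53, changed most of all tested members that had counts in every group. It was at 37.5 and 37 CPM in wild-type cells ex vivo and 140.7 and 137.6 in vitro, a rise of 1.90 on the log2 scale (SE 0.168, edgeR adjusted p = 2.84e-05). In CIS-null cells it rose from 45.9 and 36.6 to 184.9 and 257.8 (2.42, SE 0.17, edgeR adjusted p = 5.71e-06). Its parent Rps27 did not pass the test in either genotype (-0.35, edgeR adjusted p = 0.133, and -0.12, edgeR adjusted p = 0.58). On the per-length scale, the mean over libraries was 236.5 RPKM (CPM divided by the gene length in kilobases) for Rps27l and 16.7 for Rps27, whose transcript shares 63.08% of its 50-base words with other genes, against 22.44% for Rps27l.

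Rpl22l1, which can replace Rpl22 in the ribosome and whose message Rpl22 is known to repress, rose from 39.3 and 34.5 CPM to 66.3 and 63.5 in wild-type cells and from 50.5 and 36.8 to 83.6 and 119.1 in CIS-null cells. The log2 changes were 0.81 and 1.22. Rpl22 itself rose by 1.39 and 1.60, from 274.9 and 264 CPM to 708.3 and 700 in wild-type cells. Rpl7l1, a nucleolar relative of Rpl7, rose by 0.58 and 0.80, and Rpl7 by 1.17 and 1.34.

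Rps4l and Rpl10l went the other way. Rps4l, a transcribed pseudogene related to the X-linked Rps4x, fell from 15.6 and 16.4 CPM to 8.17 and 5.3 in wild-type cells (-1.24, edgeR adjusted p = 0.000906) and from 19.5 and 16.4 to 10.7 and 9.05 in CIS-null cells (-0.86, edgeR adjusted p = 0.00457). Rps4x rose by 0.95 and 1.05. Rpl10l, known as a testis gene that stands in for Rpl10, had 21 and 19 counts in the wild-type and 40 and 38 in the CIS-null libraries ex vivo, and 0 in all 4 libraries in vitro. Against a floor of 3 counts over a group, this is at least 15.5-fold lower in wild-type and at least 28.1-fold lower in CIS-null culture. Its parent Rpl10 rose by 0.53 and 0.88.

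Rpl39l, another gene known from testis, was at 0.715 and 1.03 CPM in wild-type cells ex vivo and 0.799 and 0.457 in vitro, and Rps12l2 at 7.15 and 7.18 ex vivo and 4.55 and 6.89 in vitro. Neither passed in either genotype. The B cell and monocyte sums were also lower in vitro, as given above, and whether the ex vivo counts of Rpl10l and Rps4l came from such cells was not tested.

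Without CIS, the summed level of the set in freshly isolated cells was not separable from wild-type. No member passed the test in either direction (edgeR, 1 at an unadjusted p under 0.05), against 0.0303% of all tested genes in each direction, and 0 passed with DESeq2, against 0.167% and 0.174%. The median log2 difference, CIS-null over wild-type, was 0.14, and the summed level differed by 0.13. The 2 CIS-null libraries differed by more than this. The second CIS-null library lay below the first for 79 of 82 members, with a median ratio of 0.694, while the ratio over all tested genes was 0.988. Without the first CIS-null library the members' median was -0.15, and without the second it was 0.37. The wild-type pair had a median ratio of 0.983. B cell markers summed to 584.9 CPM in the first CIS-null library and 226.8 in the second, and whether this bears on the ratio was not tested.

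In culture, most ribosomal protein genes measured slightly more in CIS-null than in wild-type cells, and few passed the test. The fold changes of 81 of the 82 genes were above 0, with a median of 0.39 on the log2 scale (1.31-fold) against 0.00 over all tested genes. That median was between 0.23 and 0.52 when 1 library was left out, lowest without the second CIS-null library in vitro, and 0.25 with library totals. In 76 genes both CIS-null libraries lay above both wild-type libraries, as in 33.7% of all tested genes. Of the 82, 4 passed the edgeR test and 0 were lower, a share below the background of 11% higher and 14.6% lower, and 30 had an unadjusted p under 0.05. DESeq2 called 21 higher, against 13.3% of all tested genes. The summed level differed by 0.39, or 1.31-fold.

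The 4 genes were Rps27l, Rpl22l1, Rpl18 and Rpl27. Rps27l measured 140.7 and 137.6 CPM in wild-type and 184.9 and 257.8 in CIS-null cells in vitro (0.67, SE 0.16, edgeR adjusted p = 0.0197). Rpl22l1 measured 66.3 and 63.5 against 83.6 and 119.1 (0.64, SE 0.189, edgeR adjusted p = 0.0383). Both are paralogs. All 4 genes also rose in culture in both genotypes, as did 66 of the 82 members. Rpl27, a large subunit protein, measured 8.48 and 8.36 against 12.3 and 14.5 (0.67, SE 0.175, edgeR adjusted p = 0.0265). Rpl18, also of the large subunit, measured 98.2 and 97.2 against 127.7 and 143.9 (0.47, SE 0.15, edgeR adjusted p = 0.0496). In each of the 4, both CIS-null libraries were above both wild-type libraries, as in 76 of the 82 members and 33.7% of all tested genes. The 4 were chosen by a test on these same libraries, so this adds no support.

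These calls depended on single libraries and on gene length. Without the second wild-type library in vitro 0 members passed (8 at an unadjusted p under 0.05; 2.55% of all tested genes), and 0 without the second CIS-null library in vitro (3 at an unadjusted p under 0.05; 1.38%). Without the first wild-type library in vitro 6 others passed (2.93% of all tested genes), and without either CIS-null ex vivo library 36 passed, the 4 among them (14.6% and 14.5%). The second CIS-null library in vitro was above the first for 76 members, with a median ratio of 1.25. The 1454 other genes of at most 1000 bases had a median of 0.34, close to the 0.39 of the members. With the length trend removed, the members' median was 0.07 and 1 member passed, Rpl7l1, which was not among the 4 (11.9% of all tested genes). With base composition removed too, the median was 0.06 and the same gene passed (12.5%). Counts assigned to Rn45s, the ribosomal RNA precursor, were 2984.1 and 5090.5 CPM in wild-type and 12258.2 and 13888 in CIS-null cells in vitro, and between 1381.7 and 3506.5 ex vivo. Its part, and that of the T cell markers above, was not tested.

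**Figure D4:**
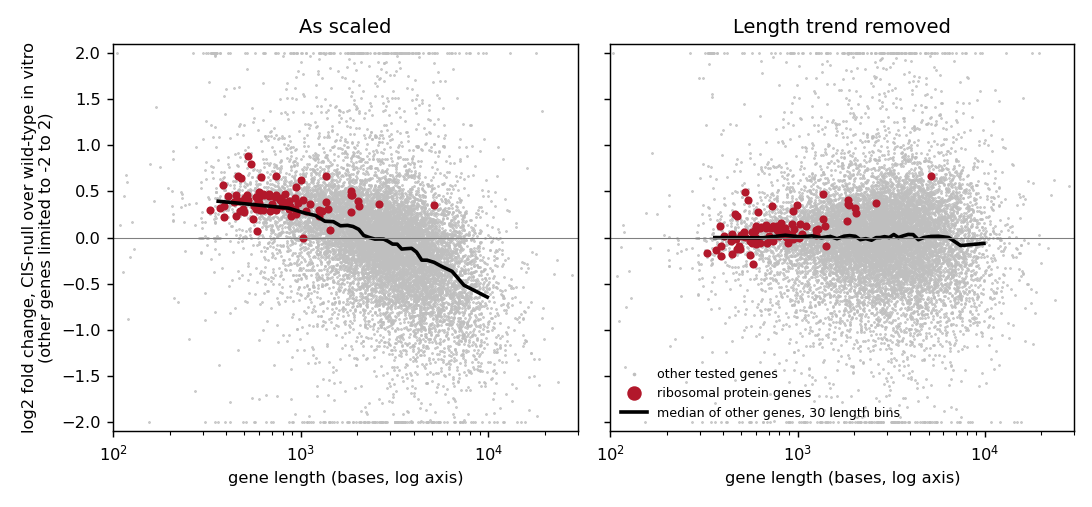
Log2 fold change of CIS-null over wild-type cells in vitro against gene length (log axis), for ribosomal protein genes (red) and other tested genes (grey, limited to -2 to 2), with the median of the other genes in 30 length bins (black). As scaled (left) the median of other genes falls with length and the ribosomal protein genes lie near it, and with the trend removed (right) their median is 0.07.

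In 5 abundant members the wild-type replicates in vitro disagreed. Rps18, a small subunit protein, measured 874.2 CPM in the first library and 436.9 in the second, a ratio of 0.5. Rpl26 measured 401 and 202 (0.504), and Rpl3, which contacts the catalytic centre of the large subunit, 488.6 and 262.4 (0.537). Rpl21 measured 154.9 and 80.3 (0.519), and Rps2 measured 372 and 210.1 (0.565). The next member by this ratio with a mean of at least 20 CPM was Rps3a1, at 0.897. The 5 genes lie on chromosomes 17, 11, 15, 5 and 17. In the CIS-null pair in vitro the second library was the higher one, with Rps18 at 1031.1 and 1391.1 and Rpl3 at 543.8 and 648.2. Over all tested genes, 3.41% had a ratio under 0.7 in this pair. Rpl21 did not pass the culture test in wild-type cells (0.44, edgeR adjusted p = 0.18), and the SE of the other 4 there, 0.262 to 0.32, exceeded the 0.202 of Rps3.

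Levels per length ranged widely among the members. Over the 82 tested genes the mean over libraries ran from 0.607 RPKM (Rpl10l) to 3490.3 (Rplp1), with a median of 177.6 and quartiles of 20.4 and 513. Among the highest were Rplp1, Rpl32 (2827.8), Rpl8 (2547.7), Rpl41 (2418.9) and Rps15 (2195). Of the tested genes, the lowest besides 2 paralogs were Rpl13 (4.3), Rps13 (4.71), Rpl31 (6.8) and Rpl38 (7.54). Both genes too low for testing lay below all of these, Rpl39 at 0.497 and Rpl3l at 0.00584. Many ribosomal protein genes have processed copies elsewhere in the genome. A median of 55.5% of the 50-base words of a member's transcript occurred in another annotated gene (GENCODE vM21, 80 genes matched), with the highest share, 95.1%, in Rpl35. The median level was 553.8 RPKM in 10 members with under 20% of words shared, 212.8 in 32 with 20 to 60%, and 92.9 in 38 with 60% or more. These shares depend on the transcript used. Rps20, with 7.575% shared, was scored on a transcript of 3706 bases against a deposited length of 502. Across these genes the Spearman correlation of level with shared share was -0.318, and -0.501 with 100-base words. Genes are not independent replicates, and the counting's handling of reads with several matches is not given in the sources used here.

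**Figure D5:**
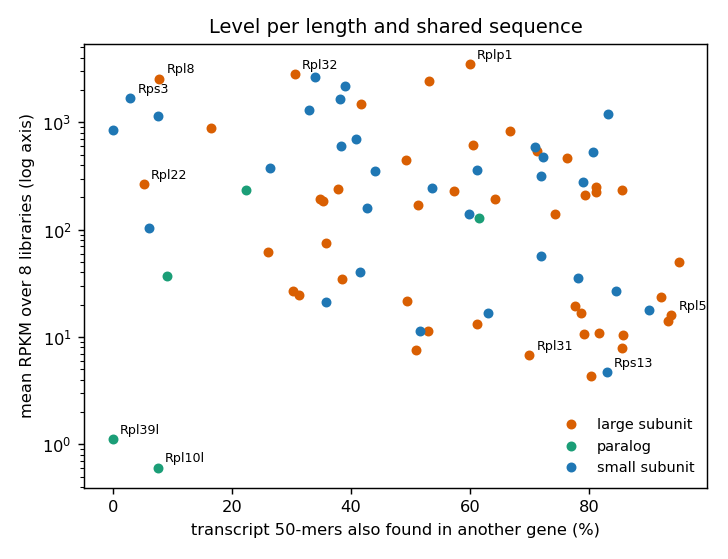
Mean RPKM over the 8 libraries (log axis) against the percentage of a transcript's 50-base words that occur in another gene, for 80 tested genes coloured by class. Genes under 10 RPKM, other than the paralogs Rpl39l and Rpl10l, all have over 50% of their words shared.

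The change on culture was counted in the same 3 groups, beside 32.1% of all tested genes higher in wild-type cells and 34.8% in CIS-null cells. In wild-type cells 8 of the 10 members with under 20% shared words rose (median 0.91), 25 of 32 in the middle group (0.88) and 33 of 38 with 60% or more (0.75). In CIS-null cells the counts were 8 of 10 (1.08), 30 of 32 (1.17) and 34 of 38 (1.15).

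Some reads of these genes may be listed under their processed copies. Of 30 rows with a -ps symbol, 7 had no count in any library and 18 were tested. Of the 18, 10 rose and 0 fell in each genotype, with medians of 0.73 and 1.03. Over all tested genes 32.1% rose and 31.6% fell in wild-type cells, and 34.8% and 37.5% in CIS-null cells. In 4 of the 30 rows the counts exceeded those of the parent. Rps6-ps4 held 17.7 times the counts of Rps6: 323.4 and 309 CPM in wild-type cells ex vivo and 890.6 and 805.9 in vitro, where Rps6 measured 23.3 and 23.6, and 45.3 and 44.1. Rpl17-ps10 held 6.69 times those of Rpl17, Rps13-ps4 2.35 times those of Rps13, and Rpl34-ps1 1.92 times those of Rpl34. Rows were compared with the parent singly, and some parents have several. Rps15a-ps5, Rps15a-ps6 and Rps15a-ps4 held 0.625, 0.328 and 0.302 times the counts of Rps15a. The assignment of these reads was not tested, and the levels of members with a near-identical copy are uncertain.

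Genes that work with the ribosomal proteins were counted in the same way, beside a background on culture of 32.1% higher and 31.6% lower in wild-type cells and 34.8% and 37.5% in CIS-null cells. Among ribosomal proteins that the symbol rule misses, Gnb2l1 (the scaffold RACK1) rose by 0.93 and 1.25 and Rpl36al by 1.06 and 1.53, and Fau passed in neither genotype. Of 19 translation factors and other proteins with TOP messages, 15 rose in wild-type cells and 16 in CIS-null cells. They included Naca (1.48 and 1.76), a guard of nascent chains, and Npm1 (1.40 and 1.68), a nucleolar chaperone. Eif4a2, a helicase of initiation, fell in both (-0.93 and -0.95), and Hnrnpa1 fell in wild-type cells (-0.42). All 6 snoRNA host genes with TOP starts rose in both genotypes, from Snhg1 (0.54) to Snhg6 (1.62) in wild-type cells.

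Ribosome assembly genes were read against the same background. Of 6 chaperones of single ribosomal proteins, 4 rose in wild-type cells and all 6 did so in CIS-null cells, among them Grwd1, the chaperone of Rpl3 (1.44 and 1.98). Of 24 genes of RNA polymerase I and ribosomal RNA processing, 18 rose and 1 fell in wild-type cells and 19 rose and 2 fell in CIS-null cells. Nop16, a nucleolar protein, rose by 1.54 and 2.48, and Taf1c, a subunit of the polymerase I selectivity factor, fell by 0.35 and 0.56 on the log2 scale. Of 28 initiation factors and their binding proteins, 18 and 20 rose and 1 fell in each genotype; Eif4a1 rose by 1.20 and 1.75.

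In CIS-null against wild-type cells in vitro, 17 of the 24 polymerase I and processing genes were higher and 1 lower, 5 of 6 chaperones were higher, and 13 of 28 initiation factors were higher and 3 lower. The background is the same 11% and 14.6%. Of 16 regulators of ribosomal protein genes, 8 rose and 2 fell on culture in wild-type cells, and 10 rose and 4 fell in CIS-null cells, against the culture background above. Mycn, a relative of Myc, was at 0.126 and 0.158 CPM ex vivo and 33 and 35.2 in vitro in wild-type cells, and at 0 and 0.0393 against 60.6 and 62 in CIS-null cells. Myc, which drives ribosome production, rose by 1.12 and 1.11 on culture, and Larp1, which binds TOP starts, by 1.03 and 1.06, while Rptor, the substrate adaptor of an mTOR complex, fell by 0.80 and 0.97 on the log2 scale. Between genotypes in vitro, 3 of the 16 were higher in CIS-null cells and 2 lower. The higher ones were Mycn (0.85), Max, the partner of Myc (0.42), and Larp4 (0.34). The lower ones were Mtor (-0.71) and Mxd4 (-0.54). All 10 proliferation markers rose on culture in wild-type cells and 9 in CIS-null cells.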

How the data were processed

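The authors deposited 1 table of raw read counts per gene for all 8 libraries, with gene lengths, and a table of log2 RPKM for each library. Per the submitters' processing notes, Subread, featureCounts, limma and the build GRCm38 (mm10) were used for these deposited counts and log2 values; versions, roles and the handling of reads with several matches are not given in the sources used here. The deposited log2 values served as an alternative only.

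Counts were scaled by TMM and filtered by filterByExpr (minimum count 10, total 15). edgeR 4.0.16 (R 4.3.3) fitted 4 group means over all 8 libraries with a quasi-likelihood test. The Benjamini-Hochberg adjustment covered all 13184 tested genes, and 0.05 was the threshold. With 2 libraries per group the residual degrees of freedom were 4. CPM and RPKM were computed from the counts with TMM factors and the deposited lengths. DESeq2 1.42.0, limma 3.58.1, other scalings and filters, a spline of 4 degrees of freedom on length, a replicate block and leaving out each library were the alternatives. SciPy 1.17.1 gave the exact test. On data simulated for the genotype comparison in vitro over 12919 genes, edgeR found 84.2% of 196 genes changed 2-fold, with 6 false among 171 calls. With a length trend added to the simulated data, 2119 of 2287 calls were false, and with that trend removed in the fit 11 of 174. The added trend was a straight line on log2 length, which the removed curve on the same length can match by construction. The simulated data also had the same spread for every gene and no change on culture. Whether these rates carry over to the 8 libraries, whose replicates differed as given below, was not tested. Start regions, gene positions and gene types came from RefSeq. Transcript sequences, used for shared words and base composition, came from GENCODE vM21.

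Members and gene lists were chosen with earlier results of these data known. The text names the paralogs and their parents, the P stalk, 5S and X-linked genes, the 6 highest and 6 lowest by RPKM, the largest changes with at least 20 CPM (up to 8 per direction, or 5 next by p), the 4 farthest above and below the median, and up to 4 per other list. Rpl11, Rpl18, Rpl27, the 5 members low in one library and Rps7 were also described for their values. Results for some genes are not reported here. All 8 libraries were used. No replicate pair agreed within sampling noise (chi-square per degree of freedom 5.7 to 32.1 over all genes; over the members 3.43 and 387 in the wild-type and CIS-null pairs ex vivo, and 139 and 311 in vitro).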

Additional observations from a re-analysis of the deposited data

How the results depend on the processing

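Leaving out each library gave 44 to 67 members higher on culture in wild-type cells, 66 to 76 in CIS-null cells, 0 to 36 for genotype in vitro and 0 to 1 for the difference between genotype effects; where this left a group with 1 library, the lone library was taken to have the spread of the other groups. The 4 members higher in CIS-null cells in vitro were 21 with DESeq2 (13.3% of all tested genes) and 2 with library totals (5.64%). With the length trend (11.9%) or the length and base composition trend (12.5%) removed they were 1. In settings where no share over all genes is given here, they were 9 with the compared libraries alone (median 0.39) and 7 without a filter on low counts (0.42). With limma on log2 RPKM, which held 79 members, they were 7 (0.33). With the replicate number as a block they were 2; the numbers did not pair the libraries (correlations of deviations from -0.232 to 0.146), and the block changed no other count by over 1.5 times. The 2 members lower on culture became 1 in each genotype at 5 CPM in 2 libraries, 4 (wild-type) and 5 (CIS-null) with length and base composition removed, and 6 in CIS-null cells with length removed. Under that removal of both, Rpl13a (-0.04), Rps16 (-0.05) and Rps23 (-0.15) changed sign in CIS-null culture. Among members of at least 20 CPM the SD of log2 fold changes was 0.409 and 0.416 on culture (wild-type, CIS-null), 0.0638 for genotype ex vivo and 0.148 for the difference. Without the 5 most abundant members the summed change in wild-type culture was 1.06. The pyrimidine run was found in 46% within 5 bases and 20.6% at the annotated start, the latter chosen after seeing the data. Library totals shifted the median of all genes to -0.13 for genotype in vitro and -0.17 for culture in CIS-null cells, where they gave 5.64% higher and 21% lower, and 30.7% and 41.2%. Of the single-gene values, 4785 stayed on the same side of the threshold with the same direction, 266 took another sign with no call before or after, 125 lost and 109 gained the threshold, and 3 changed sign with a call. Depth limits Rpl10l and Rpl39l most among tested members. The causes were not tested.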
